A study of Mus musculus with 12 samples.

Results

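Retained introns with intermediate inclusion are introns that stay in some of the spliced RNA of a gene and are removed from the rest. They were chosen from the table of percent spliced in (PSI), which for an intron is the percentage of transcripts that still hold it. The members were the intron events with a known PSI in all 12 libraries, an acceptable coverage score and at least 10 corrected reads in every library, and a mean PSI over the 12 libraries from 5 to 95. Of 189134 introns in the table, 97088 passed the coverage rules and 3983 of these (4.10%) had an intermediate mean PSI. Since PSI itself chose them, their levels are given as a description.

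The samples were whole lungs, from female and male C57BL/6 mice, taken at embryonic days E15.5 and E18.5 and postnatal days P5 and P8, with 3 replicates at each time-point. No genotype or treatment differed between the groups. At each time-point the replicates shared 1 litter, so litter and time-point cannot be told apart, and the tests measure only the spread between these samples. In whole lung RNA, fewer cells of a type and less RNA per cell cannot be told apart, and neither can splicing within a cell and the mix of cells.

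An intron is removed by the spliceosome, a machine of small nuclear RNAs and proteins that joins the flanking exons. A transcript that keeps an intron is often held in the nucleus or, when exported with an early stop codon, degraded by nonsense-mediated decay. Many genes of splicing factors and RNA-binding proteins are known for such introns, which tie their output to the activity of the splicing machinery. Each intron was measured from 3 kinds of reads, those across the upstream exon-intron junction, those across the downstream intron-exon junction and those across the joined exons, beside reads inside the intron body. Neither the position nor the sequence of an intron was used here, and a gene was known only for the 105 introns that the study named as differentially spliced on these libraries, so that named genes are not independent evidence of any direction. Of these, 100 were members, in 91 genes, and introns of the same gene share their transcripts. Further members of these genes may lie among those with no known gene, so counts of members in a gene cover the named ones only.

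The counts on genes ranged from 41337443 to 53901957 per library. Lung marker genes summed to between 2346 and 3987 CPM (counts per 1e6 reads) in the embryonic libraries and between 14059 and 17489 CPM in the postnatal ones. Most of the postnatal sum was the surfactant gene *Sftpc*, at 505 to 1819 CPM in embryonic and 9644 to 13186 CPM in postnatal libraries. The list did not rise as a whole. *Pecam1* was higher after birth (198 to 328 and 509 to 616 CPM), but *Epcam* (205 to 216 and 60.9 to 73.8 CPM) and *Nkx2-1* (177 to 237 and 136 to 157 CPM) were lower. Some libraries had high levels of heart muscle markers or of thymus and T cell markers. Whether this RNA came from neighbouring organs was not tested. The 9 heart muscle markers summed to 1002 CPM in E15.5 replicate 1 and 1244 CPM in E15.5 replicate 2, against 62.1 CPM in E15.5 replicate 3 and 65.2 to 375 CPM in the other time-points. The 12 thymus and T cell markers summed to 255 CPM in P8 replicate 1 and 472 CPM in P8 replicate 2, against 45.5 CPM in P8 replicate 3, and to 56.2 CPM in E15.5 replicate 2, against 21.5 and 23.6 CPM in the other E15.5 libraries. The E18.5 and P5 libraries lay between 18.2 and 43.1 CPM for the thymus list, so the interval across birth was free of the highest levels of both lists.

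Most members were retained at low levels. The median of the mean PSI was 8.83, and 2277 members (57.2%) lay from 5 to 10, 1187 from 10 to 25, 338 from 25 to 50 and 181 from 50 to 95. At the lower limit, the members just inside had mean PSIs of 5 and 5.00083 and the introns just outside 4.99667 and 4.99917. At the upper limit the corresponding values were 94.6 for both just inside, and 95.3 and 95.4 just outside. The share of events with an intermediate mean was 4.52% for alternative exons, 4.14% for alternative 3′ splice sites and 4.12% for alternative 5′ splice sites, close to the 4.10% of introns. A member had a median of 83 corrected reads in a library, and its PSI had a median SD of 4.88 points between the replicates of a time-point. The 4 time-point means of a member spanned a median of 7.29 points. A time-point mean under 5 was found in 1756 members, and 46 members had a PSI of 0 in all 3 libraries of a time-point.

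**Figure D1:**
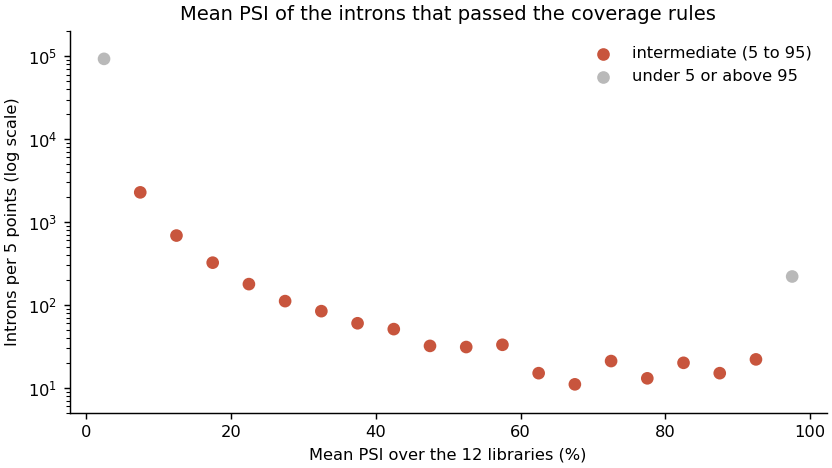
Number of introns (log axis) against their mean PSI over the 12 libraries in bins of 5 points, with the 3983 intermediate introns in red and those under 5 or above 95 in grey. The 92885 introns under 5 outnumber all others, and the counts fall steeply from 5 to 25.

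Averaged over all members, retention was highest at E15.5. Their median PSI was 9.98, 10 and 10.6 in the E15.5 libraries, 8.82, 8.08 and 8.33 at E18.5, 8.13, 9.70 and 9.91 at P5 and 7.89, 8.62 and 10.3 at P8. The 3 E15.5 libraries lay above the 3 E18.5 libraries, while the P5 and P8 libraries spread over the range of both. The mean PSI over members was 15.48 ± 0.251 at E15.5 (SD, n = 3), 13.8 ± 0.489 (E18.5), 14.7 ± 0.834 (P5) and 14.2 ± 1.40 (P8). The 92885 introns under a mean PSI of 5, measured in the same way, moved alongside, with means of 0.575 ± 0.0506, 0.437 ± 0.0393, 0.531 ± 0.0749 and 0.513 ± 0.134. Of the members, 37.9% had their highest time-point mean at E15.5 and 31.3% their lowest at E18.5.

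To find introns whose retention changed between time-points, a minimum value (MV) of PSI change was computed for each pair of time-points. The MV is the smallest absolute PSI difference that the reads of the libraries hold with a probability of 0.95, and an intron was called at an MV of at least 10%. From E18.5 to P5, the interval that spans birth, 31 members (0.778%) were called, 22 with higher and 9 with lower retention at P5. Over all 331318 events tested, 0.0447% were called (0.029% higher and 0.0157% lower), and among the 14034 events of all types with an intermediate mean PSI 1.05% were called. Of the alternative exons with an intermediate mean, 102 of 4412 (2.31%) were called. From E15.5 to E18.5, 3 members were called, all lower at E18.5 (0.00453% of all events were called, 0.00121% higher and 0.00332% lower, and 0.107% of the intermediate events). From P5 to P8, 2 were called, both lower at P8 (0.00302% of all events, 0.00121% higher and 0.00181% lower, and 0.0713% of the intermediate ones). In mean PSI, 89 members rose and 131 fell by at least 10 points in this interval (5.52%, against 10.1% of the intermediate events). From E15.5 to P5, 52 members were called, 29 higher and 23 lower, where 0.0555% of all events (0.032% higher and 0.0235% lower) and 1.31% of the intermediate ones were. From E15.5 to P8 there were 44 calls, 20 higher and 24 lower, beside 0.054% of all events (0.0308% higher and 0.0232% lower) and 1.28% of the intermediate ones. Between E18.5 and P8 there were 24, of which 16 were higher and 8 lower, beside 0.0426% (0.0278% higher and 0.0148% lower) and 1%. With 1 library left out, the counts reached 3 to 11 from E15.5 to E18.5, P5 to P8 gave 1 call without P8 replicate 2, and E18.5 to P8 gave 38 without E18.5 replicate 1 and 37 without P8 replicate 1. Of the introns under a mean PSI of 5, none was called in any comparison. From E18.5 to P5, 8 of them rose and 8 fell by at least 10 points in mean PSI (0.0172%). A mean under 5 over the 12 libraries limits how high any time-point mean can lie. The selection thus left little room for an MV of 10%, and the lack of calls does not show how often these introns change.

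**Figure D2:**
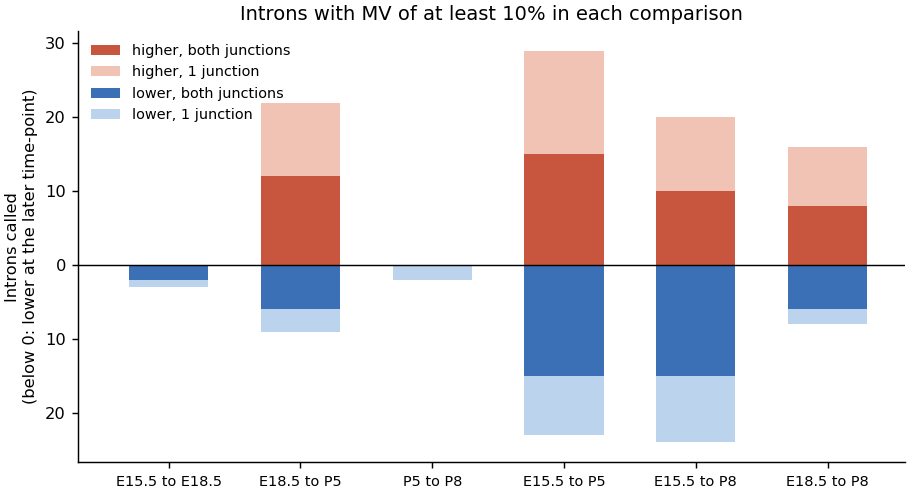
Number of members called in each of the 6 comparisons, above 0 where PSI was higher at the later time-point and below 0 where it was lower. Dark bars count introns with at least 5% of their junction reads at each exon-intron junction and pale bars those with almost all of them at 1 junction. The 22 higher and 9 lower calls from E18.5 to P5 contrast with 3 and 2 calls within the embryonic and the postnatal period.

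In all, 79 members (1.98%) were called in at least 1 comparison, and 78 of them had a gene. The share of all events called in at least 1 comparison was not counted. In each single comparison the share of members called was below that of all intermediate events, which include the alternative exons. From E18.5 to P5 it was above the shares of intermediate alternative 3′ (0.151%) and 5′ splice sites (0.431%). The same held from E15.5 to P5 (0.211% and 0.215%) and from E15.5 to P8 (0.332% and 0.301%). In the other comparisons it was not above both. Calls were rarest at low retention, with 4 of the 2277 members from 5 to 10, 26 of 1187 from 10 to 25, 35 of 338 from 25 to 50 and 14 of 181 from 50 to 95. A low mean also leaves less room for a difference that gives an MV of 10%. The called members also had more reads, with a median of 162 in a library.

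Of the 100 members with a gene, which the study had chosen for changes in these libraries, 31 were called across birth. Of 17 members in genes of RNA processing, the ribosome and translation, 6 were called across birth, each higher at P5, and over all 17 the median difference between postnatal and embryonic mean PSI was 13.6 points. No enrichment of any gene group was tested. The intron MmuINT0123847 lies in *Polr2b* (ENSMUSG00000029250, GRCm38 chr5:77310147-77349324), which encodes a large subunit of RNA polymerase II. Its PSI was 1.11, 0.450 and 1.02 at E15.5, 1.5, 3.73 and 2.21 at E18.5, 39.99, 32.9 and 34.9 at P5 and 33.0, 32.5 and 34.6 at P8. All 6 postnatal libraries lay above all 6 embryonic libraries, with an MV of 25% across birth and an odds difference of 4.98 on the log2 scale between postnatal and embryonic libraries (SE 0.28, limma adjusted p = 7.7e-07).

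*Eftud2* (ENSMUSG00000020929, chr11:102838473-102880985) encodes a GTPase of the spliceosome and held a pair of the named members. The intron MmuINT0055745 had a PSI of 2.18, 1.28 and 1.98 at E15.5, 3.68, 2.53 and 2.05 at E18.5, 19.5, 20.2 and 18.8 at P5 and 13.2, 6.43 and 17.1 at P8, and it was called from E18.5 to P5 with an MV of 12%. The other one, MmuINT0055747, was at 2.23 ± 1.57 at E18.5 and 18.2 ± 3.55 at P5 (SD, n = 3), with an MV of 9% that missed the call in this interval and a limma adjusted p of 0.0092 between embryonic and postnatal libraries. In both introns the lowest postnatal value was in P8 replicate 2, the library with the highest thymus gene level, and for MmuINT0055747 it lay at 3.68, below the highest embryonic value of 4.03.

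*Tsr1* (ENSMUSG00000038335, chr11:74898071-74909342), a factor in the maturation of the small ribosomal subunit, held 3 of the named members. All 3, which the study had chosen for change, were higher in each postnatal library than in each embryonic one. For MmuINT0166780 the PSI was 21.9, 30.6 and 19.6 at E15.5, 39.9, 26.2 and 24.8 at E18.5, 61.6, 53.9 and 58.6 at P5 and 47.2, 49.5 and 51.4 at P8. MmuINT1034007 was called as well, with 11.99 ± 3.70 at E18.5 and 39.7 ± 4.05 at P5, whereas MmuINT0166782 was at 24.8 ± 3.93 and 42.8 ± 7.22 with an MV of 5%, under the call. In *Pusl1*, a pseudouridine synthase-like gene, the intron rose from 13.5 ± 8.81 to 46.1 ± 7.21, but its E15.5 libraries lay at 42.4, 12.6 and 52.7, so that the embryonic and postnatal libraries overlapped. *Aatf*, which encodes a nucleolar protein, had 7.84 ± 3.12 at E18.5 and 31.8 ± 4.40 at P5.

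**Figure D3:**
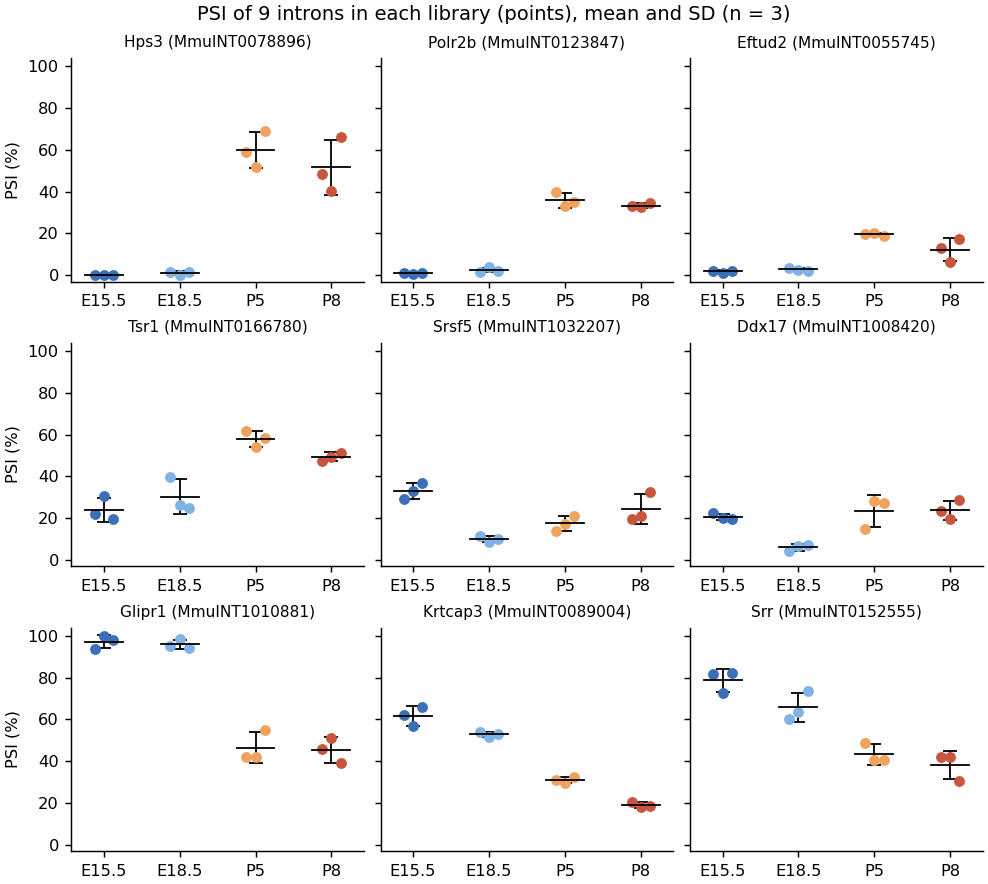
PSI (%) of 9 members in each library (points) with the mean and SD of the 3 replicates (lines) at each time-point. The introns of *Polr2b*, *Eftud2*, *Hps3* and *Tsr1* are higher at P5 than at E18.5, those of *Glipr1*, *Krtcap3* and *Srr* are lower after birth, and those of *Srsf5* and *Ddx17* are lowest at E18.5.

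A further group of 15 members lay in genes of DNA repair, replication and cell division, with 5 called from E18.5 to P5 and a median postnatal minus embryonic difference of 20.1 points. In 10 of the 15 the 6 postnatal libraries lay above the 6 embryonic libraries, and in 1 they lay below, against 2.82% and 1.59% of all intermediate events, a set not chosen for change as these 15 were. *Fanci*, a gene of the Fanconi anaemia repair pathway, had a PSI of 52.6, 51.3 and 63.5 at E15.5, 63.2, 56.6 and 57.4 at E18.5, 89.4, 86.4 and 79.5 at P5 and 79.3, 79.3 and 81.4 at P8. *Fancc*, of the same pathway, rose from 1.68 ± 1.48 to 27.0 ± 5.61 between E18.5 and P5. In *Pkmyt1*, a kinase that restrains entry into mitosis, the intron MmuINT0120792 rose from 37.5 ± 4.30 to 57.1 ± 1.76, and the intron MmuINT1026842 was at 18.8 ± 2.81 and 37.0 ± 5.34 with an MV of 6%. *Cep78*, which encodes a centrosomal protein, was at 0 in all 3 E18.5 libraries and at 36.4, 36.4 and 16.1 at P5. The called member of this group that fell was in *Dut*, the enzyme that removes dUTP, from 71.3 ± 6.34 to 46.3 ± 4.57. Without a call, *Ruvbl2* and *Ercc1* had means of 80.5 and 48.1 at E18.5 and of 54.6 and 37.8 at P5. Other members not called in this interval rose, with *Xrcc3*, *E2f2* and *Fanca* at 16.5, 6.69 and 17.1 at E18.5. At P5 they were at 52.0, 38.7 and 28.6.

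The largest rise of all was in *Hps3* (ENSMUSG00000027615, chr3:19995945-20035315), a gene of lysosome-related organelles. The PSI of MmuINT0078896 was 0 in all 3 E15.5 libraries, 1.33, 0 and 1.54 at E18.5, 59.0, 51.8 and 69.0 at P5 and 48.5, 40.4 and 66.1 at P8, with an MV of 42% across birth (limma adjusted p = 7e-06 between embryonic and postnatal libraries). The reads of this intron were uneven, however. Over the 12 libraries 628 reads crossed its upstream junction, none crossed its downstream junction and only 9.8 corrected reads lay in its body, against 435 reads across the joined exons. For *Polr2b*, by comparison, 234 reads crossed the upstream and 585 the downstream junction, with 130 in the body.

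Other genes with rising introns from E18.5 to P5 were varied in role. The intron of *Rapgef5*, an exchange factor for Rap proteins, was at 31.4 ± 11.7 at E18.5 and 80.1 ± 5.47 at P5, and then at 57.9 ± 4.12 at P8. *Psd*, an exchange factor for ARF proteins, went from 13.7 ± 4.43 to 50.7 ± 9.997 and *BC055324* from 13.8 ± 4.83 to 50.5 ± 7.10. *Tctn1*, of the ciliary transition zone, went from 17.8 ± 2.99 to 49.5 ± 6.38, *Purg* from 12.02 ± 3.34 to 42.0 ± 7.19, *Tusc2* from 12.1 ± 5.30 to 41.4 ± 5.09 and *Focad* from 15.6 ± 3.05 to 44.4 ± 9.99. The remaining called introns with a rise were in *Vcan*, which encodes a matrix proteoglycan (3.42 ± 0.855 to 27.5 ± 5.37), *Mthfd1*, an enzyme of folate metabolism (1.59 ± 0.338 to 26.1 ± 0.396), *Anks1* (6.93 ± 2.24 to 26.8 ± 3.36) and *Ppp1r18* (35.4 ± 2.94 to 61.4 ± 6.83).

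The 9 introns with lower retention at P5 belonged to 7 genes, several of them of secreted or membrane proteins. *Glipr1* (ENSMUSG00000056888, chr10:111985448-112002631), which encodes a secreted protein of the CAP family, held a pair of them. For MmuINT1010881 the PSI was 93.8, 100 and 98.03 at E15.5, 95.9 ± 2.19 (SD, n = 3) at E18.5, 42.0, 42.2 and 54.9 at P5 and 45.6, 51.2 and 39.0 at P8, and the MV across birth was -36%. For MmuINT0069262 it was 100 in all 3 E18.5 libraries and 66.5, 83.4 and 78.2 at P5. In embryonic lungs nearly all junction reads at both introns were of the retained form. The level of the gene was only 1.03 ± 0.182 CPM (E18.5) and 4.92 ± 0.307 CPM (P5). Even so, MmuINT0069262 had at least 230 corrected reads in every library. *Glipr1* overlaps *Krr1* on the other strand by 2985 bases, and which gene these reads came from was not tested.

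*Srr* (ENSMUSG00000001323, chr11:74906359-74925948), which encodes serine racemase, held a further pair. MmuINT0152555 was at 81.7, 72.5 and 82.2 at E15.5, 60.3, 63.6 and 73.5 at E18.5, 48.9, 40.5 and 40.4 at P5 and 42.0, 42.1 and 30.6 at P8, and MmuINT1032168 was at 49.8 ± 6.97 at E18.5 and 22.8 ± 5.09 at P5. *Tsga10*, a gene of the sperm tail, fell from 92.2 ± 8.38 to 54.4 ± 9.77, *Hvcn1*, a proton channel, from 61.7 ± 7.65 to 29.9 ± 3.74 and *Ednrb*, the endothelin receptor type B, from 58.3 ± 2.34 to 32.8 ± 5.54. *Il17d*, a cytokine, fell from 95.7 ± 0.947 to 75.7 ± 3.85, but its E15.5 and P8 libraries overlapped, at 91.5, 76.1 and 94.6 and at 83.0, 81.0 and 87.9. Of 11 members in extracellular and signalling genes, 3 were called in this interval, 1 higher and 2 lower, and of 10 in metabolic enzymes, transporters and GPI anchor genes 3 were called, 1 higher and 2 lower. Of 8 in genes of the cytoskeleton, the contractile apparatus and membranes, 1 was called, in *Ppp1r18*.

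The reads of an intron that is kept whole cross both of its ends. Therefore, the members were split by their exon-intron junction reads over the 12 libraries, and 710 of the 3982 with at least 20 such reads (17.8%) had less than 5% of them at 1 of the junctions. In 338 of these the reads lay at the downstream junction and in 372 at the upstream one. The intron body carried a median of 0.0135 reads per junction read in these one-sided members, against 0.257 in the 3272 others, and no body read at all in 132 of the one-sided and 18 of the two-sided members. Of the 79 called members 33 (41.8%) were one-sided, so that 4.65% of the one-sided and 1.41% of the two-sided members were called.

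Among the calls from E18.5 to P5, 10 of the 22 higher and 3 of the 9 lower introns were one-sided. *Hps3* and *Aatf* had reads at the upstream junction only, with none downstream, and *Rapgef5*, *Fancc*, *Cep78*, *BC055324* and *Dut* at the downstream junction only, with none upstream. *Rapgef5*, *Aatf* and *Fancc* also had no read in the body. *Focad*, *Tctn1*, *Mthfd1*, *Anks1*, *Ednrb* and the MmuINT1032168 intron of *Srr* had between 2 and 18 reads at their lesser junction. *Polr2b*, *Eftud2*, *Tsr1*, *Vcan*, *Pkmyt1* MmuINT0120792, *Fanci* and both *Glipr1* introns had reads at both ends, although 274 reads lay upstream and 1916 downstream in *Fanci*, 98 upstream and 1083 downstream in *Glipr1* MmuINT1010881, 48 upstream and 636 downstream in *Tsr1* MmuINT1034007, and in *Ppp1r18*, also called, 137 upstream and 1291 downstream. How well reads map to each junction was not analysed here, and what gives the one-sided reads was not tested.

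**Figure D4:**
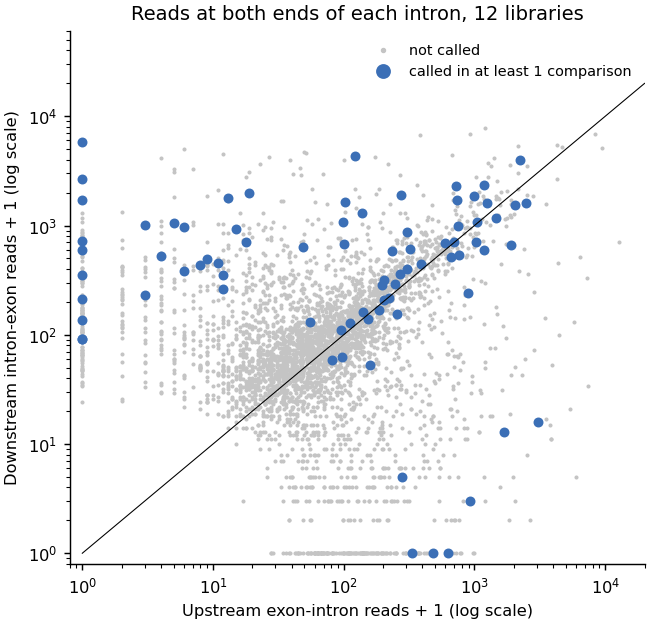
Reads over the 12 libraries at the upstream exon-intron junction and at the downstream intron-exon junction of each member, plus 1, on log axes, with equal numbers on the line. The 79 members called in at least 1 comparison are in blue, and several of them lie along the edges of the plot, where 1 junction had no read.

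For each intron the table also gives the number of positions inside the body to which reads map uniquely, which was 151 in most introns and is lower in short or repetitive ones. A window under 151 positions was found in 30.0% of the members and 24.9% of the introns under a PSI of 5. It was found in 6 of the 45 members called higher at the later time-point in any comparison (13.3%) and in 15 of the 36 called lower (41.7%), a difference that was not tested. A pair of members, in *Rapgef5* and *Ddx17*, were called in both directions. The named members in *Krtcap3* had 34, 55 and 64 positions, those in *Rarres2* 86 and 135, and the *Glipr1* intron MmuINT0069262 had 46.

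The 6 libraries of E15.5 and P8 had no part in the MV from E18.5 to P5. They did enter the mean PSI that chose the members, but over all 97088 introns that passed the coverage rules, whatever their mean, the calls from E18.5 to P5 were 31 as well, so that the limits on the mean left out no called intron. All 22 introns called higher from E18.5 to P5 had a higher mean at P8 than at E15.5, by a median of 21.9 points, against a median of -1.22 points over all members. In 18 of the 22 the 3 P8 libraries lay above the 3 E15.5 libraries, as in 1.35% of all events tested and 10.1% of those with an intermediate mean. Of the 9 introns called lower, all 9 had a lower mean at P8, by a median of -27.2 points, and in 7 the 3 P8 libraries lay below the 3 E15.5 libraries (1.32% of all events and 9.22% of intermediate ones). By MV, 8 of the 22 and 6 of the 9 were called from E15.5 to P8 too. The 8 were in *Hps3*, *Polr2b*, *Tusc2*, *Focad*, *Fanci*, *Pkmyt1* and *Tsr1*, the last with a pair of introns, and the 6 were the pairs in *Glipr1* and *Srr* with *Tsga10* and *Dut*. In replicate 3 alone of E15.5 and P8, the libraries without high thymus or heart gene levels, 22 of the 22 and 8 of the 9 had the same direction. The other types of event with an intermediate mean gave similar counts, 73 of 74 higher and 42 of 43 lower in the same direction.

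**Figure D5:**
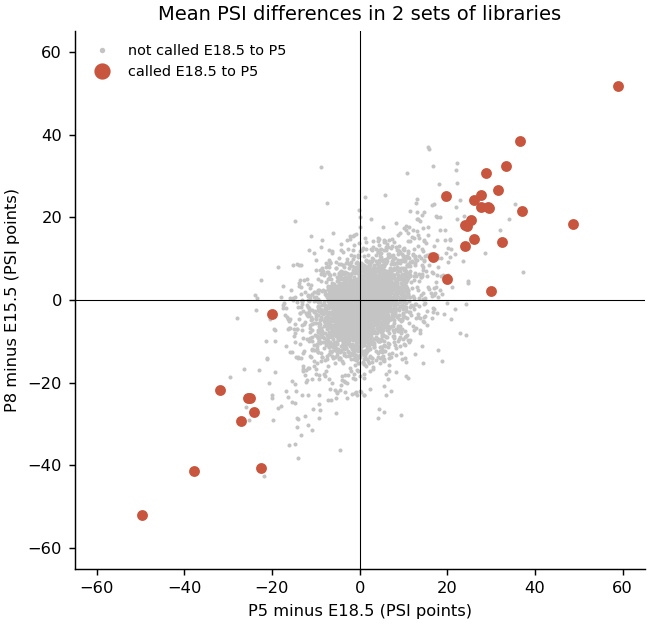
Difference of mean PSI (points) from E18.5 to P5 on the x axis and from E15.5 to P8 on the y axis for each member, which use separate libraries. The 31 members called from E18.5 to P5 are in red, and the 22 higher ones lie in the upper right and the 9 lower ones in the lower left.

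Before birth, the introns called lost retention from E15.5 to E18.5. *Srsf5* (ENSMUSG00000021134, chr12:80945504-80950507), a serine- and arginine-rich splicing factor, had a PSI of 29.4, 33.0 and 37.1 at E15.5, 11.5, 8.84 and 9.87 at E18.5, 14.1, 17.4 and 21.3 at P5 and 19.8, 20.96 and 32.4 at P8. It was lowest in the E18.5 libraries, and its postnatal libraries lay between the E18.5 and E15.5 levels except for P8 replicate 3. *Ddx17*, an RNA helicase, showed the same low at E18.5, with 22.4, 19.96 and 19.6 at E15.5, 4.08, 6.47 and 7.35 at E18.5, 14.7, 28.1 and 27.3 at P5 and 23.3, 19.4 and 28.5 at P8. The third was *Bvht*, a long noncoding RNA known from heart development, which fell from 56.5 ± 5.99 to 26.9 ± 2.48 and then to 12.9 ± 3.86 at P5. All its exon-intron reads (722) lay at the downstream junction, and heart marker levels were high in E15.5 replicates 1 and 2, whose PSIs of 63.0 and 51.2 lay on either side of the 55.3 in replicate 3. *Eif4a2*, a helicase of translation initiation, was at 25.6 ± 4.53 and 10.2 ± 2.095, with an MV of -9%, just under the call.

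Other RNA-binding protein genes had members that followed other courses. *Chtop*, an mRNA export factor, was at 31.6 ± 1.19, 39.8 ± 1.32, 48.9 ± 1.86 and 39.2 ± 0.440 at the 4 time-points, highest at P5, and was called from E15.5 to P5 with an MV of 12%. *Hnrnpf*, an hnRNP splicing factor, was at 45.5 ± 4.29, 53.0 ± 3.57, 69.6 ± 5.38 and 68.5 ± 4.92 and was called from E15.5 to both postnatal time-points with an MV of 13%, though 4294 of its exon-intron reads lay downstream against 120 upstream, with 1.1 corrected reads in the body. From P5 to P8, the called introns were those of *Pigl*, an enzyme of GPI anchor synthesis, with 65.1, 60.8 and 64.3 at P5 and 30.7, 25.8 and 40.2 at P8, and *Rapgef5*. Both were one-sided with no body read, and 1 of the 2 calls was lost when P5 replicate 2, P5 replicate 3, P8 replicate 2 or P8 replicate 3 was left out.

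The comparisons over longer spans of time added introns with gradual courses. In *Krtcap3*, which encodes a membrane protein, MmuINT0089004 was at 62.2, 56.8 and 66.2 at E15.5, 54.0, 51.6 and 53.1 at E18.5, 31.1, 29.4 and 32.5 at P5 and 20.6, 18.1 and 18.4 at P8, so that no 2 neighbouring time-points overlapped. Its MV was -28% from E15.5 to P8, and the members MmuINT0089001 and MmuINT0089003 of the same gene were also lower in all 6 postnatal libraries. The pair of named members in *Rarres2*, which encodes the chemoattractant chemerin, fell from 27.0 ± 4.12 and 33.1 ± 1.45 at E15.5 to 7.26 ± 0.800 and 6.98 ± 0.666 at P8 (limma adjusted p = 1.9e-05 and 5.5e-05). *Ankzf1* rose between E18.5 (19.3 ± 3.93) and P8 (61.6 ± 16.1), with the highest value of 79.6 in P8 replicate 2, and its limma adjusted p between embryonic and postnatal libraries was 0.075. Without the E15.5 replicate 2 and P8 replicates 1 and 2, that is without the highest thymus gene levels, 48 of the 52 calls from E15.5 to P5 were kept, 39 of the 44 from E15.5 to P8 and 23 of the 24 from E18.5 to P8. Without the E15.5 replicates 1 and 2, which had the highest heart gene levels, 47 of the 52 calls from E15.5 to P5 and 39 of the 44 from E15.5 to P8 were kept. The number of calls grew in those cases, and what made it grow was not tested. A time-point with 1 library left carries no replicate spread. The P8 library left without the highest thymus gene levels, replicate 3, had a mean PSI of 15.8 over members. The other P8 libraries were at 13.2 and 13.7.

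To compare the 6 embryonic with the 6 postnatal libraries, members whose ranges did not overlap were counted. There were 198 (4.97%), 123 with all postnatal libraries above and 75 with all below, against 0.324% of all events tested (0.214% above and 0.11% below). Of the intermediate events 4.41% did not overlap (2.82% above and 1.59% below), so the share of members was near that of other intermediate events. With limma on the logit of PSI, 490 members passed an adjusted p of 0.05 when all events were fitted together, but 21.8% of all events did so. The logit of an event at PSI 0 or 100 follows its number of reads, and the part of this in the 21.8% was not tested. Among the 14034 events with an intermediate mean only, 254 members passed (6.38%), 144 higher and 110 lower in postnatal lungs, against 5.81% of all these events and 449 of 4412 alternative exons (10.2%). Of the 79 members called by MV, 68 were among the 254. Without P5 replicate 3 the 254 became 157, and without P5 replicate 1 they became 169.

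The levels of the genes that held named members were compared across birth from the gene counts. Of the 90 host genes tested, 18 (20%) passed an absolute log2 fold change of 1 with an edgeR FDR under 0.05 across birth, of which 9 were higher and 9 lower, against 26.8% of all 15994 genes (17.5% higher and 9.34% lower). Of the 22 introns called higher, 17 lay in genes that did not pass both cutoffs, 2 in genes that rose and 3 in genes that fell. Of the 9 called lower, 5 lay in genes that did not pass, 3 in genes that rose and 1 in a gene that fell. *Polr2b* had 109 ± 5.67 CPM before birth (E18.5) and 64.6 ± 1.89 CPM after it (P5), or -0.67 as log2 fold change (SE 0.06, edgeR FDR = 3.6e-07), and *Eftud2* and *Tsr1* also had lower levels after birth, with log2 fold changes of -0.75 and -0.80. *Glipr1* rose by 2.34 on the log2 scale (edgeR FDR = 2.2e-06) while its introns fell, and *Hps3* had a log2 fold change of 0.63. A transcript annotated as having a retained intron was listed for 65 of the 91 host genes (71.4%) in GENCODE M21, and for 51.1% of the genes tested.

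Many host genes shared ground with a gene on the opposite strand. Of 90 host genes with a location, 46 (51.1%) overlapped a tested gene on the other strand, as did 19.8% of all tested genes. *Tsr1* and *Srr* overlap by 2984 bases, and the called introns of *Tsr1* rose from E18.5 to P5 while those of *Srr* fell. *Hvcn1* and *Tctn1* overlap by 4450 bases, and there too 1 intron fell and the other rose. *Hps3* overlaps *Cp* by 13201 bases, *Glipr1* overlaps *Krr1* by 2985, *Pusl1* overlaps *Ints11* by 1225 and *Polr2b* overlaps *Igfbp7* by 85. No source used here says that the reads were counted by strand, so reads of overlapping genes cannot be told apart, and their part in these PSI values was not tested.

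The machinery that removes introns and degrades unspliced RNA was measured in the gene counts of the same libraries. Of 42 core spliceosome genes tested, 6 fell past both cutoffs across birth, as 9.34% of all genes did, and 41 were lower at an edgeR FDR under 0.05 alone, which 71.1% of all genes passed in either direction, with a median log2 fold change of -0.68 against -0.0024 over all genes. Among those that fell were *Snrpf* (-1.37), *Snrpd1* (-1.28) and *Snrpa* (-1.10), which encode proteins of the spliceosomal small nuclear ribonucleoproteins. The counts of *Snrpf* were low, at 1.74 ± 0.319 CPM (E18.5) and 0.627 ± 0.160 CPM (P5). Of 17 tested genes of the nuclear RNA exosome, 2 fell past both cutoffs, *Exosc8* (-1.08) and *Dis3* (-1.02), and the median was -0.48. Neither share was tested against that of all genes. Neither the 17 genes of nonsense-mediated decay nor the 12 of the minor spliceosome had a member past both cutoffs with edgeR, and at the FDR alone 3 were higher and 10 lower in the first list and 2 higher and 4 lower in the second. The nuclear RNA *Neat1* was between 2.8 and 5.3 CPM in the embryonic and between 44.8 and 112 CPM in the postnatal libraries, and *Malat1* between 10.2 and 17.03 CPM and between 14.3 and 38.1 CPM. Whether these levels bear on the retention of any member was not tested.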

How the data were processed

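Whole lung RNA of 12 libraries (4 time-points, 3 replicates each) was analysed from the tables of the authors. Per the labels and the study's methods, the authors aligned reads to the mouse genome mm10 with TopHat2 (version 2.1.1) and Bowtie2 (version 2.3.4) and counted them on GENCODE genes with HTSeq (version 0.10.0). They deposited the counts without normalization and a table of CPM, which was used for levels. The authors obtained PSI, in percent, with VAST-TOOLS, and the deposited table holds for each library the PSI and a quality string with the corrected inclusion and exclusion reads, the reads at each exon-intron junction and the reads of the intron body. PSI from the corrected reads differed from the deposited percent values by at most 0.0395 points. Whether the libraries keep strand is not given in the sources used here.

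The MV followed the definition of VAST-TOOLS diff, with a Beta distribution for each library over all 9 pairs of libraries. It was computed for the 331318 events that passed the study's own filter, which allows up to 2 libraries under the read minimum. The members were held to the read minimum in every library, and for introns both rules gave 97088. limma (version 3.58.1, trend and robust) was fitted to the logit of PSI with 0.5 reads added, and edgeR (version 4.0.16, quasi-likelihood test, TMM) to the counts of the 15994 genes that reached 1 CPM in 3 or more libraries. p-values were adjusted by Benjamini-Hochberg over all events or genes fitted, and the adjusted p-values printed for introns come from the fit of the 14034 events with a mean PSI from 5 to 95. Each procedure was tested on simulated data. R (version 4.3.3), Python (version 3.11.15), numpy (version 2.4.6) and scipy (version 1.17.1) were used.

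Introns were named where the supplementary tables of the study pair them with a gene, and at most the 15 with the largest PSI difference among those called from E18.5 to P5 and the 5 of each other comparison, those in *Srsf5*, *Eftud2*, *Chtop*, *Ddx17*, *Hnrnpf*, *Eif4a2* and *Polr2b*, those in genes with 2 or more members, and by ID the 2 unnamed ones with the largest rise and fall. The other called introns from E18.5 to P5 were added after their values were seen. So were *Actc1*, *Cav1*, *Sox17*, *Ruvbl2*, *Ercc1*, *Xrcc3*, *E2f2* and *Fanca*. The members and lists were chosen with earlier results of these data known. Gene locations are those of GENCODE M21 (GRCm38). The replicate numbers did not pair libraries, no 2 libraries were copies of each other (mean chi-square per gene from 13.0 to 75.1), and alternatives varied the MV threshold, the coverage, the PSI limits, the pairing, the normalization and the libraries. The authors' own comparison columns were not used.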

Additional observations from a re-analysis of the deposited data

How the results depend on the processing

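The counts of called introns changed with the threshold and with the limits set on the reads. In the order E15.5 to E18.5, E18.5 to P5, P5 to P8, E15.5 to P5, E15.5 to P8, E18.5 to P8, where 3, 31, 2, 52, 44 and 24 members were called, an MV of at least 5% gave 22, 93, 7, 126, 103 and 71, and an MV of at least 20% gave 0, 4, 0, 10, 8 and 5. Members in which no imbalance of reads along the intron was found in at least 9 libraries alone gave 1, 9, 0, 20, 16 and 8. Introns with few reads can pass this limit without having even reads. Those with at least 5% of the junction reads at each junction gave 18, 0, 30, 25 and 14 from E18.5 to P5 on. Leaving out 1 library at a time gave 3 to 11, 38 to 45, 1 to 3, 54 to 69, 52 to 61 and 29 to 38, where a smaller group has less replicate spread. The counts moved by over 1.5 times without each library of E15.5 to E18.5 other than E18.5 replicate 2, without P8 replicate 2 for P5 to P8 (1), and without E18.5 replicate 1 (38) or P8 replicate 1 (37) for E18.5 to P8. Without the 3 libraries with the highest thymus gene levels there were 11 calls from E15.5 to E18.5, 18 from P5 to P8, 128 from E15.5 to P8 and, against E18.5, 121. Without the 2 with the highest heart gene levels, which like the even-junction limit was chosen after seeing the data, there were 44 from E15.5 to E18.5, 111 from E15.5 to P5 and, up to P8, 97.

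For the fit of embryonic against postnatal libraries with limma, 490 members passed over all events, 278 among those with no imbalance found and 282 without the 3 thymus libraries, and 388 to 438 with 1 library left out. Over events with a mean PSI from 5 to 95, which was also chosen after seeing the data, 254 passed, 185 on the scale of PSI, 185 with at least 5% of the junction reads at each junction, 108 without the thymus libraries, 134 without the heart libraries, and 157 to 237 with 1 library left out. With edgeR, 18 host genes passed both cutoffs, 66 the FDR alone and 18 to 20 with 1 library left out, and DESeq2 called 18. The replicate numbers showed no pairing, with correlations of same-numbered deviations from -0.048 to 0.0997. Matching the libraries by number gave 5, 32, 1, 57, 53 and 31 calls by MV and kept 3, 24, 1, 47, 42 and 22 of the calls reported. From E18.5 to P5 the calls lost were in *Aatf*, *Focad*, *Pusl1*, *Pkmyt1*, *Tsga10*, *Dut* and *Srr* (MmuINT0152555), with a matched MV of 9%, 8%, 8%, 9%, -9%, -9% and -7%. The replicate block gave 424 members with limma over all events, 211 over events with a mean PSI from 5 to 95, and 18 host genes with edgeR. A member had a median of 83 corrected reads in a library, and the part of depth in missing calls was not tested.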

Other observations

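Among members with no gene in the tables, the largest rises from the embryonic to the postnatal mean were in MmuINT0166781 and MmuINT0127653. MmuINT0166781 was at 26.1, 40.5 and 19.7 at E15.5, 42.0, 33.5 and 22.7 at E18.5, 54.1, 48.8 and 64.2 at P5 and 49.1, 54.3 and 55.6 at P8, so that the postnatal libraries lay above the embryonic ones (limma adjusted p = 0.023). MmuINT0127653 was at 14.2 ± 10.3 (SD, n = 3), 22.6 ± 10.6, 39.2 ± 3.84 and 46.5 ± 12.6 at the 4 time-points, and its embryonic and postnatal libraries overlapped (limma adjusted p = 0.07). The largest falls were in MmuINT0018142 and MmuINT0042761, and in both a single E15.5 library stood far above the others. MmuINT0018142 was at 14.4, 100 and 13.3 at E15.5 (limma adjusted p = 0.26), and MmuINT0042761 at 24.6, 17.2 and 67.3 (limma adjusted p = 0.072). Neither of these was called by MV in any of the 6 comparisons.

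The intron of *Actc1*, a gene of cardiac actin and 1 of the heart muscle markers, had a PSI of 0.130, 0.0600 and 0 at E15.5, 1.27, 0.380 and 0.340 at E18.5, 32.2, 12.2 and 16.6 at P5 and 12.2, 6.15 and 16.1 at P8. It was called from E15.5 to P5 with an MV of 10%, and 921 of its exon-intron reads lay at the upstream and 2 at the downstream junction. The intron of *Cav1*, which encodes caveolin of membrane caveolae, was at 7.75 ± 0.872, 6.04 ± 0.711, 13.3 ± 0.653 and 18.46 ± 1.27, with all postnatal libraries above all embryonic ones (limma adjusted p = 1.4e-05) and no MV of 10% in any comparison, and 4116 of its reads lay downstream against 3 upstream. The intron of *Sox17*, a transcription factor of endothelial cells, was at 76.9 ± 3.96 at E15.5 and 53.7 ± 5.96, 50.8 ± 3.74 and 53.2 ± 3.23 at the later time-points, and it was called from E15.5 to P5 with an MV of -13%.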
